A study of Homo sapiens with 2 samples.

Results

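The insulin and IGF receptor axis was described here through 10 genes, selected by symbol from the 19607 genes measured in CWR22rv1 cells, a human prostate cancer cell line. They are the receptors INSR and IGF1R, the adaptors IRS1 and IRS2, the ligand IGF2, and the IGF-binding proteins IGFBP2, IGFBP3, IGFBP4, IGFBP5 and IGFBP6. RNA was sequenced from 1 library of cells in which Akt1 and Akt2 had been knocked out by CRISPR/Cas9 (Akt1/2 DKO) and from 1 library of wild type cells (control). Akt1/2 DKO lines were isolated as single clones after puromycin selection, and the labels do not say which clone the library came from. The line was kept in RPMI medium with foetal bovine serum.

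Insulin, IGF1 and IGF2 are hormones that bind the receptor tyrosine kinases INSR and IGF1R at the cell surface. The activated receptors phosphorylate the docking proteins IRS1 and IRS2, which recruit PI3K, and PI3K in turn activates the Akt kinases. Akt phosphorylates FOXO transcription factors and keeps them out of the nucleus, and FOXO factors are known to raise INSR and IRS2 transcription in several tissues. The IGF-binding proteins are secreted carriers that hold IGF1 and IGF2 and can limit or prolong their action. In prostate cells IGF signalling is known as a growth and survival signal.

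The estimated reads, rounded to whole numbers, summed to 9970815 in control cells against 10718634 in Akt1/2 DKO cells. Levels are given as reads, as reads scaled to the library total (CPM) or, where genes are compared with each other, as the authors' FPKM, which corrects for transcript length. A fold is the ratio of TMM-normalised reads, Akt1/2 DKO to control, and a gene was called when it differed by at least 1.5-fold and its reads in both libraries summed to at least 10. A gene with that sum is called tested, although no significance test can be made from 1 library per condition. The 95% intervals (exact, Clopper-Pearson for ratios and shares, Poisson for levels) hold counting error only, because there is no replicate of either condition, and no difference below has a replicate check. AKT1 had 2645 reads in control cells against 591 in Akt1/2 DKO cells, and AKT2 had 2362 and 667, in the direction of the labels. All 9 prostate luminal markers were read in both libraries, 4 higher and 3 lower, FOXA1 with 2511 and 3289 reads, while KLK3 had 184 and 29. Of 8 fibroblast markers FAP was at 0 in both libraries, and the list summed to 143 and 157 reads, with COL3A1 at 74 and 9, LUM at 5 and 35 and COL1A1 at 55 and 106. The 5 endothelial markers summed to 2 and 3 reads and the 5 leukocyte markers to 6 and 11. Their part in the differences below was not tested.

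Receptors, adaptors and carriers each held a gene that differed greatly between the libraries. IGF1R fell 10.8-fold and IGFBP2 fell 5.19-fold in Akt1/2 DKO cells, while IRS2 rose 4.34-fold and IGFBP3 rose 2.66-fold. INSR and IRS1 stayed within 1.5-fold. IGF2, IGFBP4, IGFBP5 and IGFBP6 had no more than 6 reads in either library. Of the 10 genes, 6 passed the read minimum and 4 of those were called, 2 higher and 2 lower. Over all 13318 genes tested, 30.9% were called, 15.9% higher and 15.0% lower. The 4 called genes also had a counting interval wholly beyond 1.5-fold, which held for 16.5% of all genes tested. The median log2 ratio of the 6 was 0.10, against 0.01 over all genes tested. In bulk RNA, fewer cells with a transcript and less of it per cell cannot be told apart.

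**Figure D1:**
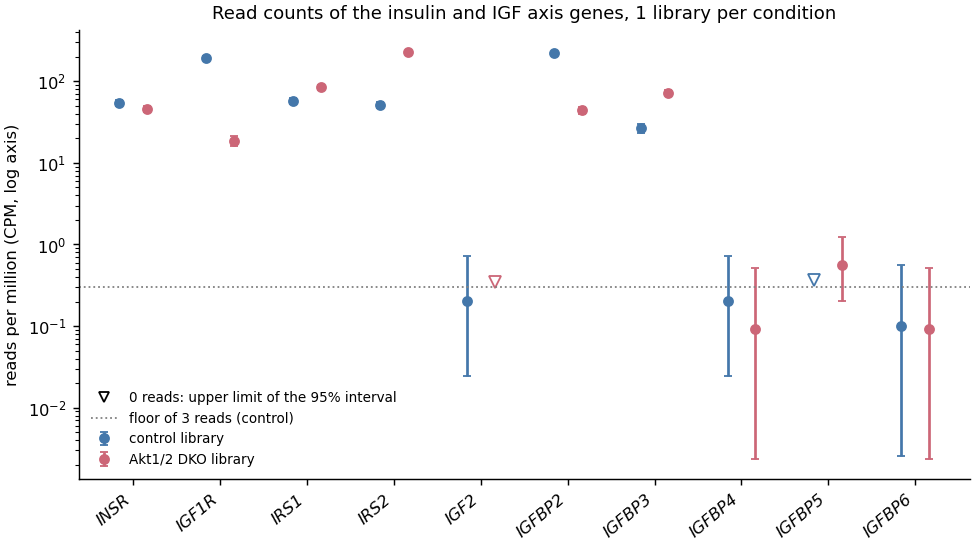
CPM (log axis) of the 10 axis genes in the control library (blue) and the Akt1/2 DKO library (red), with exact 95% Poisson intervals, an open triangle marking the upper limit where 0 reads were counted and the dotted line the floor of 3 reads. IGF1R drops from 194 to 18.6 CPM and IRS2 goes from 51.0 to 228 CPM, and IGF2, IGFBP4, IGFBP5 and IGFBP6 lie near or below the floor in both libraries.

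IGF1R (ENSG00000140443) encodes the IGF1 receptor, which binds IGF1 and IGF2. It lies on the forward strand of chromosome 15 from 98648539 to 98964530 (GRCh38), with 21 exons in its principal transcript. The control library held 1935 IGF1R reads (194 CPM, interval 186 to 203) and the Akt1/2 DKO library 199 (18.6 CPM, interval 16.1 to 21.3). The intervals are far apart. The log2 ratio was -3.43 (interval -3.65 to -3.22), that is 10.8-fold lower with an interval from 9.31 to 12.5. Of the 10956 genes whose reads summed to at least 100, 82 (0.748%) were lower by as much or more. In FPKM, IGF1R went from 29.2, above 83.2% of all genes, to 2.75, above 47.7%.

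INSR (ENSG00000171105), on the reverse strand of chromosome 19 from 7112255 to 7294034 with 22 exons, encodes the insulin receptor, which also binds IGF2. It had 538 reads in control cells against 490 in Akt1/2 DKO cells, 54.0 and 45.7 CPM. Its log2 ratio of -0.28 (interval -0.46 to -0.10) was 1.22-fold, short of the 1.5-fold limit. Gene-level reads do not separate the INSR isoforms.

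The balance of the receptors within each library does not depend on how the libraries are scaled. IGF1R stood at 3.86 times the FPKM of INSR in the control library and at 0.446 times in the Akt1/2 DKO library. By reads, the ratio of IGF1R to INSR fell 8.85-fold (exact conditional interval 7.29 to 10.8). IGF1R was the more abundant receptor transcript in control cells, and INSR was in Akt1/2 DKO cells.

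The sequence around the start of IGF1R is shown because it is the gene of the axis that fell furthest. It runs from 250 bases before to 50 bases after the RefSeq start (chr15:98648289-98648588, forward strand, GRCh38.p14), and capitals mark GGGCGG, the GC box bound by Sp1-type factors. Of all 35116 promoter windows of this length, 45.0% hold GGGCGG or its reverse complement CCGCCC.

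IGF1R: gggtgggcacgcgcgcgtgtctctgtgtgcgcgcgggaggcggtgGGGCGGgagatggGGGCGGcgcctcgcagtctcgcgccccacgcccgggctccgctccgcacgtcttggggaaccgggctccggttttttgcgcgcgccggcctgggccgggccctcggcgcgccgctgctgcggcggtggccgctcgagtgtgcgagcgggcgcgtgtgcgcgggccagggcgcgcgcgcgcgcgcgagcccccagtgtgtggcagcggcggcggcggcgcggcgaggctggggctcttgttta

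The window is 79.7% G and C and holds 2 GC boxes. Neither the FOXO consensus GTAAACA nor the insulin response element core CAAAACA was found whole in it on either strand. Its last bases, tgttta, are the start of TGTTTAC, the reverse complement of GTAAACA. The next base lies outside the window, so a match across its end was not examined.

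IRS2 (ENSG00000185950) encodes an adaptor through which INSR and IGF1R engage PI3K. It lies on the reverse strand of chromosome 13 from 109752698 to 109786568 and has 2 exons. It had 509 reads in control cells (51.0 CPM, interval 46.7 to 55.7) against 2448 in Akt1/2 DKO cells (228 CPM, interval 219 to 238). Its level was far higher in Akt1/2 DKO cells, with a log2 ratio of 2.12 (interval 1.98 to 2.26), or 4.34-fold (interval 3.94 to 4.78). Of the genes with a sum of 100 reads or more, 249 (2.27%) were higher by as much or more. AL162497.1, an antisense gene not analysed here, overlaps IRS2, and reads of both strands cannot be told apart where counting ignored strand, which is not given in the sources used here.

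IRS1 (ENSG00000169047), the other IRS adaptor of the axis, lies on the reverse strand of chromosome 2 from 226731317 to 226799759 and also has 2 exons. It had 579 reads in the control and 903 in the Akt1/2 DKO library, 58.1 and 84.2 CPM. The log2 ratio was 0.49, or 1.41-fold, and its interval (1.27 to 1.56) spans the 1.5-fold limit. The adaptors were thus near equal in FPKM in the control library, 5.94 for IRS1 and 6.23 for IRS2, and stood at 8.62 and 27.9 in the Akt1/2 DKO library. By reads, the ratio of IRS2 to IRS1 rose 3.08-fold (interval 2.67 to 3.56).

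The IRS2 window is shown as that of the gene of the axis that rose furthest, and because it holds an element with the name of insulin. It covers chr13:109786534-109786833 on the reverse strand (GRCh38.p14), and capitals mark GC boxes on either strand and TGTTTTG, the reverse complement of the core CAAAACA.

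IRS2: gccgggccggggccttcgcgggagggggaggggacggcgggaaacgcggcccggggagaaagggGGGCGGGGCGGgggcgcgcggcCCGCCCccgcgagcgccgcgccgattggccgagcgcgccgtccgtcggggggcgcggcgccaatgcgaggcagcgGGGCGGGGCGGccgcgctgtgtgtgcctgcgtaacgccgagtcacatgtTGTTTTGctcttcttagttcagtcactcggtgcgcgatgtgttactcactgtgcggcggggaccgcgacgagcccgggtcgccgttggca

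TGTTTTG begins 40 bases before the start of IRS2. CAAAACA or TGTTTTG occurs in 4.92% of all windows of this length, and among the 11 windows that RefSeq gives for 9 of the 10 axis genes it occurs in 1, that of IRS2. The FOXO consensus GTAAACA (or TGTTTAC), present in 3.42% of all windows, was found in 1 of the 11, that of IGFBP6. GC boxes stood in 9 of the 11. A match of letters is a description and does not show that a factor binds there.

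**Figure D2:**
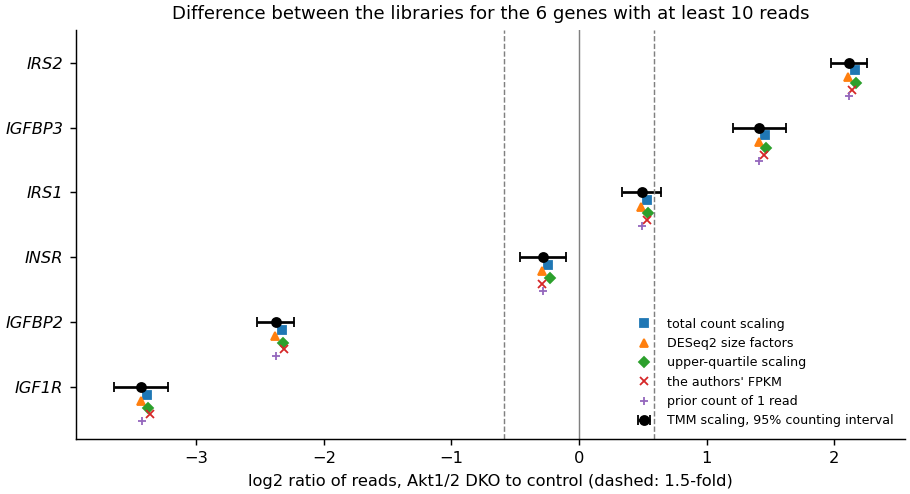
Log2 ratio of Akt1/2 DKO to control for the 6 axis genes with at least 10 reads, with TMM scaling and its 95% counting interval (black) and 5 other settings (coloured marks), the dashed lines standing at 1.5-fold. IGF1R and IGFBP2 lie wholly to the left of the dashed lines, IGFBP3 and IRS2 wholly to the right, and the other settings fall inside each interval.

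Among the carriers, IGFBP2 and IGFBP3 made up nearly all reads and moved in opposite directions. IGFBP2 (ENSG00000115457), which binds IGF2 with some preference, lies on the forward strand of chromosome 2 from 216632828 to 216664436 with 4 exons. It had 2213 reads in control cells (222 CPM) against 473 in Akt1/2 DKO cells (44.1 CPM). The log2 ratio was -2.37 (interval -2.52 to -2.23), or 5.19-fold lower, and 150 genes (1.37%) of those with a sum of 100 reads or more fell as far or further. At 187 FPKM it exceeded 98.1% of all genes in the control library, and at 37.5 FPKM it exceeded 86.9% in the Akt1/2 DKO library.

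IGFBP3 (ENSG00000146674), the main carrier of IGFs in blood and a known inhibitor of growth in many cell types, lies on the reverse strand of chromosome 7 from 45912245 to 45921874 with 5 exons. It had 264 reads in control cells (26.5 CPM) against 780 in Akt1/2 DKO cells (72.8 CPM), a log2 ratio of 1.41 (interval 1.21 to 1.62), or 2.66-fold higher. Of the genes with a sum of 100 reads or more, 446 (4.07%) rose as far or further. The study picked IGFBP3 from these libraries and followed it by PCR, so its direction is not independent evidence. The PCR primers are shown because they define the stretch of IGFBP3 that was followed.

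IGFBP3 forward primer: tctgatcccaagttccaccc

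IGFBP3 reverse primer: tccatttctctacggcaggg

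The forward primer matches coding sequence in exon 2 (chromosome 7, 45917343 to 45917362) and the reverse primer coding sequence in exon 3 (45916645 to 45916664). They bound a stretch of 173 bases across the splice junction and matched transcripts of no gene other than IGFBP3 without mismatch in GENCODE release 29.

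The makeup of the carriers differed between the libraries. Of the 2480 reads of IGFBP2 to IGFBP6 in the control library, IGFBP2 held 89.2% (interval 87.9 to 90.4) and IGFBP3 10.6% (interval 9.46 to 11.9). Of the 1261 in the Akt1/2 DKO library, IGFBP2 held 37.5% (interval 34.8 to 40.2) and IGFBP3 61.9% (interval 59.1 to 64.5). IGFBP3 thus held more reads than IGFBP2 in Akt1/2 DKO cells. Per length the order was different, since IGFBP2 held 94.1% of the summed FPKM in the control library and still 53.8% in the Akt1/2 DKO library. The summed FPKM of the 5 carriers was 199 and 69.7. By reads, the ratio of IGFBP3 to IGFBP2 rose 13.8-fold (interval 11.6 to 16.5).

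IGFBP5 (ENSG00000115461), a carrier abundant in bone and muscle, lies 3′ of IGFBP2 on the opposite strand of chromosome 2, from 216672105 to 216695525. It had 0 reads in control cells against 6 in Akt1/2 DKO cells. Against the floor of 3 reads per library it was 1.80-fold higher, with a lower counting limit of 1.06-fold, and it was below the read minimum for a call. IGFBP4 (ENSG00000141753) had 2 and 1 reads and IGFBP6 (ENSG00000167779) had 1 and 1. IGF2 (ENSG00000167244), the fetal growth factor of the axis, had 2 reads in control cells against 0 in Akt1/2 DKO cells. These 3 genes were at or under the floor in both libraries, so no difference was detectable at this depth and no fold is given. IGF2 overlaps INS-IGF2, which had 0 reads in both libraries, and an antisense gene, as does IGFBP5. A count of 3 reads corresponds to 0.301 CPM in the control and 0.280 CPM in the Akt1/2 DKO library.

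**Figure D3:**
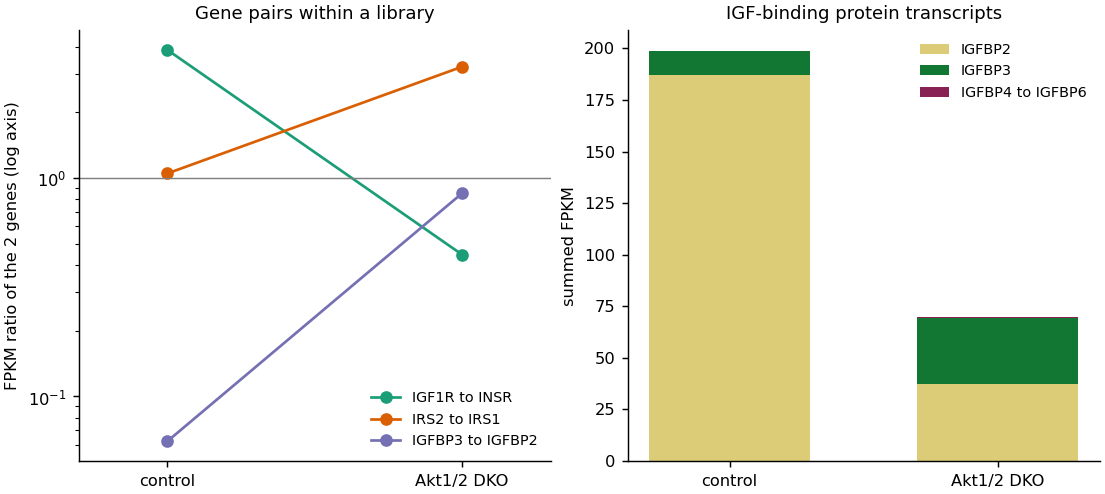
Left, the ratio of FPKM values of 3 gene pairs within each library (log axis), with 1 point per library. Right, summed FPKM of the IGF-binding proteins. IGF1R to INSR crosses from 3.86 to 0.446, IRS2 to IRS1 goes from 1.05 to 3.23 and IGFBP3 to IGFBP2 from 0.0623 to 0.852, while IGFBP4 to IGFBP6 are too low to be seen.

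The called genes of the axis lie on chromosomes whose expressed genes had a median log2 ratio near 0. Such a median does not show whether a part of a chromosome shifted, and this was not tested. The median log2 ratio of genes with at least 50 reads was 0.02 on chromosome 15 (389 genes besides IGF1R), 0.07 on chromosome 13 (190 besides IRS2), near 0 on chromosome 2 and 0.09 on chromosome 7. Around IGF1R the 10 nearest such genes on each side had log2 ratios from -1.22 to 1.07 with a median of -0.13, so IGF1R lay below all 20. Its flanking genes were ARRDC4 at -0.86 and SYNM at 0.54. Around IRS2 the 20 ratios ran from -0.56 to 2.43 with a median of 0.05, and the highest was that of the flanking gene COL4A2 (23 and 137 reads). Around IGFBP2 they ran from -3.91 to 2.72 (median -0.04), and around IGFBP3 from -5.28 to 5.03 (median -0.01). Both IGFBP2 and IGFBP3 had a fallen neighbour of the tensin family, TNS1 at -1.83 and TNS3 at -1.05. TNS1 and TNS3 were singled out after their values were seen.

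Around the 10 genes, further members of the axis were read from lists by role, to be set beside the 30.9% called over all genes tested. Of 4 other ligands and receptors 2 were tested, 1 was lower and 0 higher. INS had 0 reads in both libraries. IGF1, singled out after its values were seen, had 20 reads in control cells against 0 in Akt1/2 DKO cells. Against the floor it was 7.39-fold lower, with a lower counting limit of 5.47-fold. IGF2R, the scavenger receptor that clears IGF2, had 1388 and 1491 reads (log2 ratio -0.05, interval -0.15 to 0.06). Of the other carriers and the PAPPA proteolysis system that frees IGFs from them, 4 of 7 were tested, 3 were higher and 0 lower. STC2, a secreted inhibitor of PAPPA, rose from 317 to 744 reads (2.12-fold, interval 1.85 to 2.42), and the others were STC1 (4 and 28 reads) and PAPPA2 (3 and 10 reads), whose interval of 0.774- to 17.0-fold includes no difference. PAPPA itself had 2 and 4 reads. Of the 3 IGF2 mRNA-binding proteins, IGF2BP1 rose from 5 to 122 reads (22.0-fold, interval 9.18 to 69.0), and IGF2BP2 (218 and 227 reads) and IGF2BP3 (355 and 306) were not called.

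Of 13 other adaptors, 10 were not called, among them SHC1 (1174 and 1327 reads) and GRB2 (1361 and 1452), which link the receptors to the Ras pathway. GAB2, a docking protein, rose from 48 to 149 reads (2.80-fold, interval 2.01 to 3.96), and its relative GAB1 fell from 60 to 43 with an interval of 1.03 to 2.34. IRS4, a further IRS adaptor singled out after its values were seen, had 0 reads in control cells against 36 in Akt1/2 DKO cells. Against the floor of 3 reads it was 10.8-fold higher, with a lower counting limit of 8.36-fold. IRS4 was thus read in Akt1/2 DKO cells only, at 0.850 FPKM, below IRS1 and IRS2. Of 12 genes listed as restraining the axis, 11 were tested, of which 5 were lower and 2 higher, with a median log2 ratio of -0.50. The share called was 63.6%, against 30.9% over all genes tested. GRB10, which binds INSR and IGF1R and dampens their signal, went down 4.59-fold (interval 2.85 to 7.68), with 91 and 22 reads. PTPN2, a phosphatase of INSR, fell from 357 to 218 reads (1.82-fold, interval 1.53 to 2.16). TRIB3, a pseudokinase that binds Akt, rose from 1271 to 2428 reads (1.72-fold, interval 1.61 to 1.85). The other lower genes were NEDD4 (266 and 179 reads), SOCS2 (67 and 45) and SOCS3 (9 and 3), and the other higher gene was GRB14 (19 and 32), whose interval, like that of SOCS3, includes no difference.

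Genes downstream of the adaptors were counted by list, beside the 30.9% called over all genes tested. Of 5 PI3K subunits tested 2 were lower and 0 higher, namely PIK3R1 (248 and 174 reads) and PIK3CA (272 and 192). Each was 1.57- to 1.58-fold lower by reads, with an interval that spans 1.5-fold. In FPKM, PIK3R1 had 5.32 in the control and 2.82 in the Akt1/2 DKO library. PIK3CA differed little in FPKM, with 2.98 and 2.83. PIK3CA lies on chromosome 3, whose expressed genes had a median log2 ratio of -0.53. Of 6 phosphoinositide phosphatases tested, INPP4B, with 119 and 59 reads, fell 2.24-fold (interval 1.62 to 3.11), and the other 5 were not called. Of 13 genes of the Akt kinases and mTOR complexes tested, the 2 called were AKT1 and AKT2, the knocked-out genes. Of 15 Akt substrates and S6 kinase genes, 4 were higher and 1 lower. TBC1D4, an Akt substrate that controls glucose transporter traffic, rose from 181 to 736 reads (3.67-fold, interval 3.11 to 4.34). FOXO1 rose from 36 to 110 reads (2.76-fold, interval 1.88 to 4.14), while FOXO3 had 520 and 579. FOXO4 (28 and 65 reads, interval 1.33 to 3.39) and FOXO6 (15 and 32, interval 1.01 to 3.82) were also higher, with intervals that span 1.5-fold. GSK3B, also on chromosome 3, fell from 1715 to 1172 reads (1.62-fold).

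IGF1R and INSR were also set beside 45 other receptor tyrosine kinases. Of these, 25 were tested, 6 were higher and 9 lower, with a median log2 ratio of 0.05. The share called was 60%, against 30.9% over all genes tested. EGFR, from 7912 to 225 reads (log2 ratio -5.28, interval -5.48 to -5.09), was the only 1 of the 25 with a lower ratio than IGF1R. EPHA3, on chromosome 3, had 7506 and 1576 reads (5.28-fold lower), the next lowest ratio among those with a sum of 100 reads or more. EPHB3, also on chromosome 3, rose from 258 to 691 reads (2.42-fold) and EPHA2 from 72 to 131 (1.64-fold). The 4 other higher genes, DDR2, EPHA4, ERBB4 and ROR1, had from 0 to 7 reads in control cells. In FPKM, EPHA4 went the other way, with 0.61 in the control and 0.51 in the Akt1/2 DKO library. DDR2, ERBB4 and ROR1 were higher in Akt1/2 DKO cells by FPKM too. In the control library 7 of the 45 had a higher FPKM than IGF1R, and in the Akt1/2 DKO library 13 did. For INSR these numbers were 11 and 9.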

How the data were processed

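The authors deposited 1 table for both libraries, with an estimated count of reads per gene, not normalized, and FPKM values (fragments scaled to transcript length and library total) that the authors computed. The submitters' processing notes name fastp 0.20.0, TopHat, Cufflinks, edgeR and the build GRCh38.p10, with no role for each. Tables with fold changes, p-values and FDR of the authors' own comparison, and with gene classes and a correlation, were not used. Genes were found by symbol. Estimated counts, which have decimals in 2173 genes, were rounded. TMM factors (edgeR 4.0.16, R 4.3.3) set the size ratio of Akt1/2 DKO to control at 1.11. Libraries under 3 reads were set to 3 for a fold. With 1 library per condition no test across genes was run. Intervals used scipy 1.17.1 in Python 3.11.15. Steps were tested on simulated data. Positions are of GENCODE release 29 (GRCh38), where 19571 identifiers were found, and promoter windows are RefSeq's (GRCh38.p14).

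The 10 genes and the lists by role were chosen with earlier results of these data known. All 10 genes are named. Of each list the 2 largest rises and falls past 1.5-fold with at least 100 reads are named, and other genes were chosen after their values were seen. The gene pairs and the chromosome values were also added after the data were seen. DESeq2 1.42.0 size factors were among the alternatives. Some genes of the lists are not reported here by name.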

Additional observations from a re-analysis of the deposited data

How the results depend on the processing

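For the 6 axis genes with at least 10 reads, scaling by total count, by DESeq2 size factors or by the upper quartile, a prior count of 1 read, and FPKM with a pseudocount of 0.1 yielded 30 log2 ratios, and all 30 lay inside the gene's counting interval. The number of axis genes called was 5 with no minimum beyond 1 read, since IGFBP5 entered, and 4 under the other filters, scalings and limits tried.

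Over all genes, the number called was 4117. It was 2546 (1238 higher, 1308 lower) for a minimum sum of 100 reads, 2391 (1333 higher, 1058 lower) for a 2-fold limit and 2201 (1158 higher, 1043 lower) for a counting interval wholly past 1.5-fold, since each asks for more. With FPKM in place of reads the share of IGFBP2 among the carriers moved from 89.2% to 94.1% in the control and from 37.5% to 53.8% in the Akt1/2 DKO library, because FPKM divides by transcript length. The depth limits what can be read for IGF2, IGFBP4, IGFBP5 and IGFBP6. No paired analysis was possible because the control and the Akt1/2 DKO rest on 1 library each.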

Other observations

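The deposited table annotates 140 genes to the KEGG insulin signaling pathway, a list added after the data were seen. Of these, 114 were tested, 13 were higher and 16 lower by at least 1.5-fold, which is 25.4% against 30.9% over all genes tested, and the median log2 ratio was -0.10. The KEGG PI3K-Akt signaling pathway, added likewise, holds 339 genes, of which 224 were tested, 35 were higher and 47 lower (36.6%), with a median of -0.03.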
